A study of Mus musculus with 3 samples.

Results

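The mitochondrial ribosomal protein genes were examined in soleus muscle of mice lacking Mettl21c. The genes were chosen by name: a non-control probe counted if its RefSeq accession belonged to a protein-coding gene whose symbol begins with Mrpl or Mrps followed by a number. This gave 78 genes, 49 of the large subunit (Mrpl) and 29 of the small subunit (Mrps) by symbol, out of 21613 genes with a symbol on the array. No measured value entered this rule, but the genes were chosen with earlier results of these data known. They were covered by 103 probes, with 1 probe for 55 genes and several for 23.

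The KO samples came from male C57BL/6 mice 8 weeks old with the genotype Mettl21cLacZ/LacZ, and the WT samples from wild-type males of the same strain and age, all on regular chow. Mettl21c encodes a lysine methyltransferase of skeletal muscle, and the labels give its allele only as LacZ on both copies. Total RNA of the muscle, labelled SOL and read here as the soleus, was hybridised to 3 two-colour Agilent arrays. Each array held 1 KO sample in Cy5 and 1 WT sample in Cy3, and the labels call the 3 samples of each genotype biological replicates. The dyes were never exchanged, so a probe's preference for one dye and the genotype cannot be told apart. The muscle was taken whole, so fewer cells of a type and less RNA per cell cannot be told apart either.

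Mitochondria carry their own ribosomes, which translate the few messages of the mitochondrial genome, all of them for membrane subunits of the respiratory chain and ATP synthase. The ribosomal RNAs come from the mitochondrial genome, while every ribosomal protein is encoded in the nucleus, made in the cytosol and imported. Some of these proteins descend from bacterial ribosomal proteins (universal names in u or b, such as uL4m). Those with names in m, such as mL45, are called mitochondria-specific here. The name does not exclude bacterial descent, since mS40 is a relative of bacterial S18. The soleus is a postural muscle rich in slow, oxidative fibres, which hold many mitochondria.

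The arrays gave similar signal. The share of non-control probes well above background was 21.0% to 21.2% in KO and 18.5% to 22.0% in WT, the lowest WT share being on array 3. Array 3 also had 1002 non-control spots with an outlier flag, against 536 and 572 on arrays 1 and 2. Mettl21c itself had a mean log2 ratio of KO over WT of -2.45 (SD 0.48, n = 3 arrays, limma adjusted p = 0.0175), with its probe well above background on 1 array in KO and on 3 arrays in WT. The size depends on the offset and on that dim KO signal, and the signals processed by the scanner software gave -6.23. Of 7 slow fibre markers, 5 were tested and all 5 were well above background in both channels on all arrays, as were 5 of 7 fast fibre markers. The summed normalised intensity of the slow fibre markers was 13194 to 16311 in KO and 9877 to 13589 in WT, with 4 of the 5 positive and 1 at a log2 ratio of -1.14. The fast fibre markers summed to 5957 to 8417 in KO and 6185 to 8290 in WT, with 2 positive and 3 negative and a median log2 ratio of -0.23. The red blood cell markers (3 of 4 tested, all positive) summed to 973 to 2418 in KO and 798 to 1311 in WT, and the macrophage markers (5 of 7 tested, all negative) to 736 to 1282 in KO and 760 to 1658 in WT. The part of these cell types in the values below was not tested.

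No mitochondrial ribosomal protein gene differed between KO and WT soleus past the threshold. Of the 78 genes 58 could be tested, 38 of the large and 20 of the small subunit, and all 58 were well above background in both channels on all 3 arrays. At an adjusted p of 0.05 in limma, adjusted over all 7424 genes and unnamed transcripts, 0 of 58 were called, and 0.0404% of all 7424 were. The smallest adjusted p among the 58 was 0.171, for Mrpl4. At an unadjusted p under 0.05 there were 2 genes higher in KO (3.45% of the 58, against 5.9% of all 7424) and 4 lower (6.9%, against 7.53%). These 6 all belong to the large subunit. With array 1, 2 or 3 left out, 3 of 59, 1 of 59 and 9 of 70 tested genes had such a p, against 11.9%, 8.77% and 13.7% of all tested genes. Each time 0 of them were called, against 9 of 7638, 16 of 7693 and 0 of 9620 of all tested genes. A log2 ratio of the same sign on all 3 arrays was found for 11 genes on the higher side (19.0%, against 17.5% of all 7424) and for 10 on the lower side (17.2%, against 18.3%). The shares with the same sign on all 3 arrays lie near those of all tested genes.

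The mean log2 ratios ran from -0.30 for Mrpl4 to 0.22 for Mrps34, with 23 positive and 35 negative. The median of the 58 genes was -0.041, beside -0.0027 for all tested genes. Their medians on arrays 1 to 3 were -0.014, -0.035 and 0.045, beside -0.012, -0.017 and 0.023 for all tested genes. The median SD between arrays was 0.125 over the 58 genes and 0.120 over all tested genes. For each of the 58 genes the 95% interval of the mean lay within 0.58 on either side of 0, which is 1.5-fold on the scale used here, and the outermost bounds were -0.52 (Mrpl28) and 0.51 (Mrps34). Such an interval was found for 96.0% of all tested genes. The normalisation adds an offset of 50 to every signal, which shrinks the ratios of dim probes, so the change without it could be larger than these bounds.

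**Figure D1:**
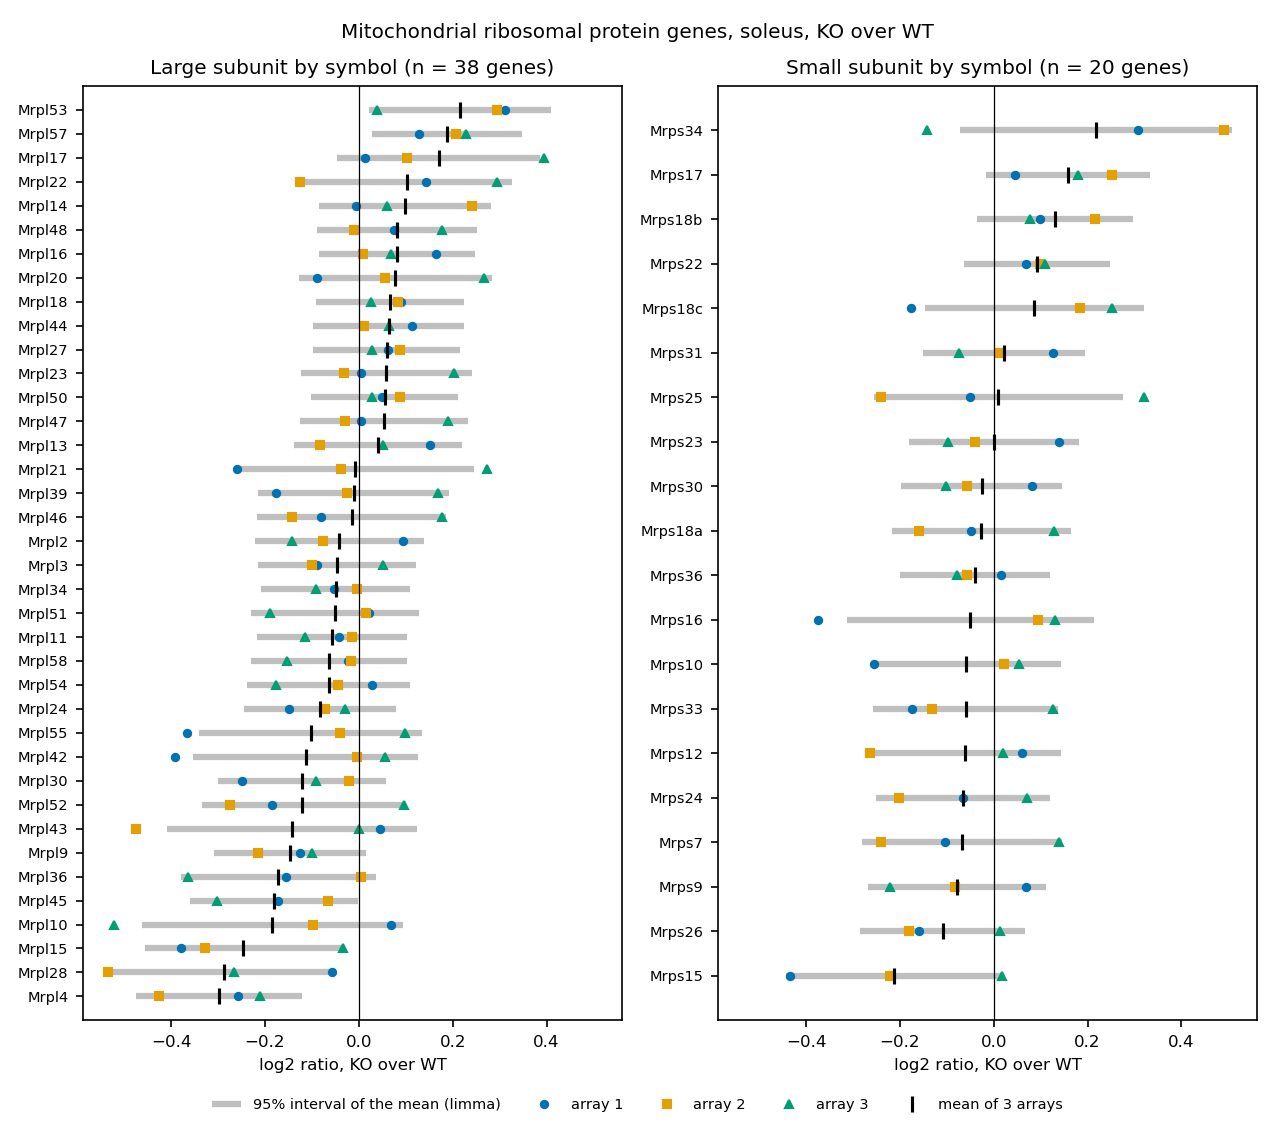
The log2 ratio of KO over WT (horizontal axis) of each tested gene, with the 38 large subunit genes left and the 20 small subunit genes right, ordered by mean. Points are the 3 arrays, black ticks their mean and grey bars the 95% interval of the mean from limma. Means run from -0.30 to 0.22, and the bars of 6 large subunit genes and of 0 small subunit genes leave out 0.

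Among the large subunit proteins with a counterpart in bacteria, several stood at the low end. Mrpl4 (uL4m), whose bacterial counterpart lines the tunnel through which the new peptide leaves the ribosome, had normalised intensities of 285, 218 and 378 in KO on arrays 1 to 3, against 340, 292 and 438 in WT. KO was the lower channel on every array, with log2 ratios of -0.26, -0.43 and -0.21 and a mean of -0.30 (SD 0.11, n = 3, limma unadjusted p = 0.0057, adjusted p = 0.171). A second, dimmer probe of Mrpl4 gave -0.18, -0.34 and -0.09. Mrpl28 (bL28m) measured 267, 212 and 115 in KO and 278, 307 and 138 in WT. Its log2 ratios of -0.06, -0.54 and -0.27 shared a sign, but array 2 lay far from array 1, and the mean was -0.29 (SD 0.24, adjusted p = 0.297). Mrpl15 (uL15m) measured 189, 193 and 240 in KO and 246, 242 and 245 in WT. The channels were nearly equal on array 3, and the mean log2 ratio was -0.25 (SD 0.19, adjusted p = 0.302). Its second probe, which was not well above background on every array, gave 0.01, -0.06 and 0.06.

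Other bacterial-type proteins of this subunit had smaller mean ratios. Mrpl10 (uL10m), which anchors the flexible stalk that recruits translation factors, had log2 ratios of 0.07, -0.10 and -0.52 and an SD of 0.30, among the 3 largest SDs of the 58. Mrpl36 (bL36m) stood at -0.16, 0.005 and -0.36, and Mrpl9 (bL9m) at -0.12, -0.22 and -0.10. Mrpl9 had one sign on all arrays and a mean of -0.15 (SD 0.060, adjusted p = 0.411), but its mean was 0.26 with the signals processed by the scanner software. The processed signals gave -0.13, -0.17 and 1.07 on arrays 1 to 3, so that positive mean rested on array 3. On the positive side, Mrpl17 (bL17m) stood at 0.01, 0.10 and 0.39, so its mean of 0.17 rested mostly on array 3. Mrpl22 (uL22m), whose bacterial counterpart also lines the exit tunnel, had a negative ratio on array 2 and positive ones on arrays 1 and 3, with a mean of 0.10. Mrpl14 (uL14m) was near 0 on array 1 and had a mean of 0.099 (SD 0.13). Mrpl27 (bL27m), close to the site of peptide bond formation, was among the least variable genes, at 0.06, 0.09 and 0.03.

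The mitochondria-specific proteins of the large subunit included both genes with an unadjusted p under 0.05 on the higher side. Mrpl53 (mL53) measured 1302, 1435 and 1055 in KO and 1048, 1169 and 1028 in WT. The gap was clear on arrays 1 and 2 and small on array 3, with log2 ratios of 0.31, 0.30 and 0.04 and a mean of 0.22 (SD 0.15, n = 3, limma unadjusted p = 0.034, adjusted p = 0.322). With the processed signals its log2 ratios were 0.09, 0.08 and -0.33, so the mean of -0.056 was negative through array 3. Mrpl57 (mL63) measured 1747, 1612 and 2143 in KO and 1598, 1396 and 1830 in WT. KO was the higher channel on every array by a similar ratio, with a mean log2 ratio of 0.19 (SD 0.053, unadjusted p = 0.028, adjusted p = 0.304), and 0.14 with the processed signals. On the lower side, Mrpl45 (mL45), which binds the ribosome to the inner membrane near the tunnel exit, measured 94.8, 95 and 98.8 in KO and 106.8, 99.5 and 121.8 in WT. Its log2 ratios were -0.17, -0.07 and -0.30, with a mean of -0.18 (SD 0.12, unadjusted p = 0.049, adjusted p = 0.370). Mrpl50 (mL50) was nearly constant, at 0.05, 0.09 and 0.03, while Mrpl43 (mL43) stood at 0.05, -0.47 and 0.001, its mean of -0.14 resting on array 2. Mrpl58 (mL62), a peptidyl-tRNA hydrolase built into the large subunit, had a mean of -0.064 (SD 0.077).

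The promoters of Mrpl53, Mrpl57 and Mrpl45 are shown because they hold motifs of factors known to drive nuclear genes for mitochondrial proteins. The choice was made among tested genes with a single promoter entry and a match to an NRF1, ETS or YY1 core. Of these, Mrpl53 and Mrpl57 had the highest mean ratios, and Mrpl45 was taken for having the most NRF1 cores. The choice did not use the p-values. Sequences are from RefSeq (GRCm38.p6) and run from 250 bases before to 50 after the gene's start, 5′ to 3′ on the gene's strand. Capitals mark matches, on either strand, to the core of the NRF1 motif (GCGCANGCG) or of the ETS motif bound by GABP (CCGGAAG). The windows are Mrpl53 at chr6:83108858-83109157 (plus strand), Mrpl57 at chr14:57825989-57826288 (plus strand) and Mrpl45 at chr11:97315466-97315765 (plus strand).
Mrpl53: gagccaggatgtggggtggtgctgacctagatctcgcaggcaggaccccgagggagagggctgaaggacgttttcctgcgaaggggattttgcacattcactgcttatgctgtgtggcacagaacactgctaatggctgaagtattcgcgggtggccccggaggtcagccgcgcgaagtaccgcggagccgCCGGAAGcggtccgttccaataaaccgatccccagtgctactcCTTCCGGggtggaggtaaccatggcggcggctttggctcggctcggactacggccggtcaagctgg
Mrpl57: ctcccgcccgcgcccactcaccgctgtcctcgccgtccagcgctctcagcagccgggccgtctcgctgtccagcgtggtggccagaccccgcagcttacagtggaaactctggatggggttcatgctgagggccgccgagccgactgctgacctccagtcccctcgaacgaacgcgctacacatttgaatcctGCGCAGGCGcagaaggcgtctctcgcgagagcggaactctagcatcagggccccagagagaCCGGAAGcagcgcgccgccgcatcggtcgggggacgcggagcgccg
Mrpl45: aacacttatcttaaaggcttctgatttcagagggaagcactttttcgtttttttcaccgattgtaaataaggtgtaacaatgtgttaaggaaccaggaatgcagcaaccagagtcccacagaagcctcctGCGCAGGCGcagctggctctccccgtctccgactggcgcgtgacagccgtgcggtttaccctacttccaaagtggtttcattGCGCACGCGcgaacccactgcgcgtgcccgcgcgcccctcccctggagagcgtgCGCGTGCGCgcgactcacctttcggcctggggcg
Mrpl53 held 2 ETS cores and 0 NRF1 cores, Mrpl57 held 1 of each, and Mrpl45 held 3 NRF1 cores and 0 ETS cores, the most NRF1 cores of any tested member with a single promoter entry.

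Of the 78 genes 69 had a promoter entry. The NRF1 core was found in 16 of 69 (23.2%), beside 16% of the 4649 tested genes with a promoter entry and 7.0% of all 27025 genes with one. The ETS core was found in 26 of 69 (37.7%), beside 21.1% and 9.9%, and a YY1 core (AAGATGGCG) in 8 (11.6%), beside 4.2% and 1.6%. An E-box (CACGTG), bound by MYC and other factors, was found in 5 (7.2%), beside 12.6% and 8.1%. Both strands were searched and no motif contains another. The median GC content was 58.7% in these promoters, 60.7% in those of tested genes and 52.7% in all. Tested genes with an ETS core (23) had a median log2 ratio of -0.0082 and those without (30) of -0.050, and for the NRF1 core the medians were -0.011 (13 with) and -0.041 (40 without). These matches describe the letters of the window and were not tested against the ratios.

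Of the 20 tested small subunit genes with an Mrps symbol, none reached an unadjusted p under 0.05 in limma. Among all 7424 the shares were 5.9% higher and 7.53% lower in KO. One sign on all arrays was seen for 3 of the 20, all positive (15%, against 17.5% of all 7424). A negative sign on all arrays was seen for 0 of the 20, against 18.3% of all 7424. The 3 positive genes were Mrps17, Mrps18b and Mrps22. Mrps17 (uS17m) measured 257, 450 and 352 in KO and 249, 378 and 311 in WT, with a mean log2 ratio of 0.16 (SD 0.11, n = 3, limma adjusted p = 0.408). Its second tested probe gave -0.09, 0.20 and 0.25, so array 1 differed in sign between the probes. Mrps18b (mS40), one of 3 mitochondrial relatives of bacterial S18, measured 442, 505 and 540 in KO and 413, 435 and 512 in WT, with a mean of 0.13 (SD 0.075, adjusted p = 0.478). Mrps22 (mS22) had the smallest SD of the 58 genes, with log2 ratios of 0.07, 0.10 and 0.11 and a mean of 0.092 (SD 0.021, adjusted p = 0.611). The second tested probe of Mrps18b gave -0.08, 0.12 and 0.03, so one sign on all arrays was seen at the brightest probe of Mrps17 and Mrps18b and not at their second.

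The extremes of the small subunit were more variable. Mrps34 (mS34), a mitochondria-specific protein, measured 2716, 2395 and 2264 in KO and 2194, 1706 and 2497 in WT. KO was the brighter channel on arrays 1 and 2 and the dimmer one on array 3, so its mean of 0.22, the highest of all 58, carried the largest SD (0.32, adjusted p = 0.502), and the processed signals gave a mean of -0.16. Mrps15 (uS15m) measured 363, 371 and 591 in KO and 491, 433 and 584 in WT. It was lower in KO on arrays 1 and 2 and nearly equal on array 3, with a mean of -0.21 (SD 0.23, adjusted p = 0.405). Mrps25 and Mrps16 had SDs of 0.29 and 0.28 with means near 0, of 0.0097 and -0.050. Mrps23 (mS23) had 2 tested probes whose means differed in sign, but the mean of the brighter one was near 0, at 0.00067 (SD 0.12). Both probes were negative on arrays 2 and 3. The brighter one gave 0.14, -0.04 and -0.10, and the dimmer one -0.33, -0.16 and -0.22.

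A few symbols do not match the place of the protein. Mrps30 (mL65) and Mrps18a (mL66) sit in the large subunit, with mean log2 ratios of -0.026 (SD 0.095) and -0.027 (SD 0.15). Mrps36 is known as a subunit of the oxoglutarate dehydrogenase complex rather than of the ribosome, and stood at -0.040 (SD 0.050). None of the 3 had one sign on all arrays.

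The medians of the large and small subunits differed by less than the spread between arrays. The median log2 ratio of the 38 large subunit genes was -0.044, with -0.014, -0.028 and 0.033 on arrays 1 to 3. That of the 20 small subunit genes was -0.033, with -0.017, -0.057 and 0.063. The large minus small difference of medians was 0.0029, 0.029 and -0.030 on the 3 arrays, a mean of 0.00073 (SD 0.029), so it changed sign and was smaller than its spread between arrays. With Mrps30 and Mrps18a counted in the large subunit and Mrps36 left out, the difference was 0.037, 0.0083 and -0.037, a mean of 0.0025 (SD 0.037). With 3 arrays an exact sign-flip test could not go below p = 0.25, so no test was made. Of the large subunit genes 15 were positive and 23 negative, and of the small subunit genes 8 and 12.

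**Figure D2:**
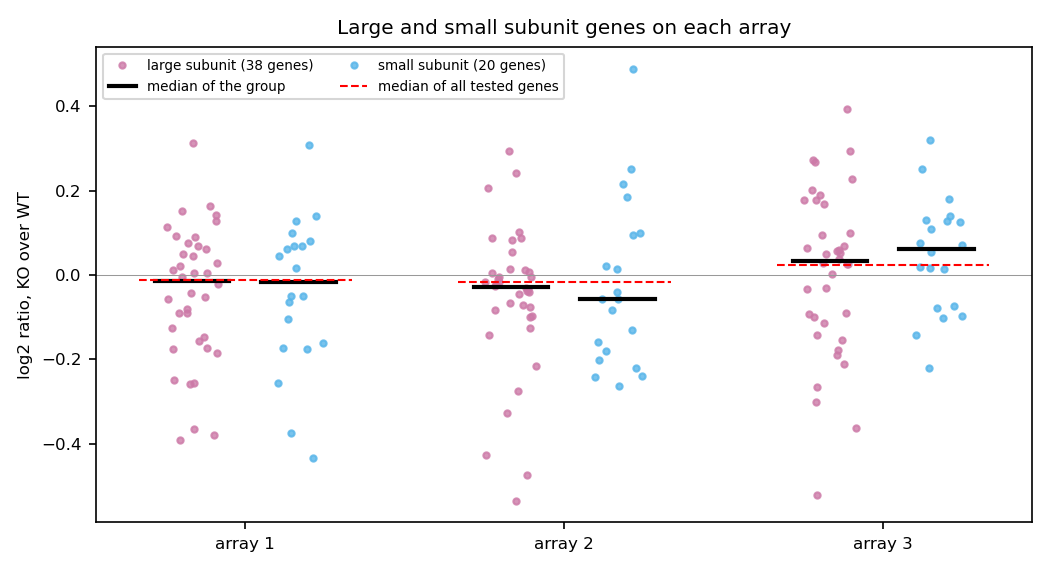
Log2 ratio of KO over WT (vertical axis) of each tested gene on each array, large subunit genes left and small subunit genes right in each pair. Black bars are the medians of the group on that array and red dashed lines the median of all 7424 tested genes. The medians of both subunits lie between -0.057 and 0.063 and change places between arrays.

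A split by universal name, u or b (counterpart in bacteria) against m (mitochondria-specific), gave a similar picture. The 33 tested genes with a counterpart in bacteria had a median log2 ratio of -0.050, and the 24 mitochondria-specific ones -0.013. The difference of their medians was -0.095, -0.017 and 0.0032 on arrays 1 to 3, so it was largest on array 1 and near 0 on array 3. In the small subunit 6 of 8 mitochondria-specific genes had a positive mean, Mrps18b (mS40) among them, and 2 of 9 genes with a counterpart in bacteria did. In the large subunit the counts were 5 of 16 and 10 of 24.

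How far the genes kept a common pattern differed between pairs of arrays. Across the 58 genes the log2 ratios correlated at 0.382 between arrays 1 and 2, at -0.0556 between arrays 1 and 3 and at 0.184 between arrays 2 and 3. Across all 7424 genes the values were 0.350, 0.206 and 0.333. These correlations are across genes, and genes measured on the same array are not independent replicates. The processed signals gave a mean of the same sign for 45 of 58 genes.

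**Figure D3:**
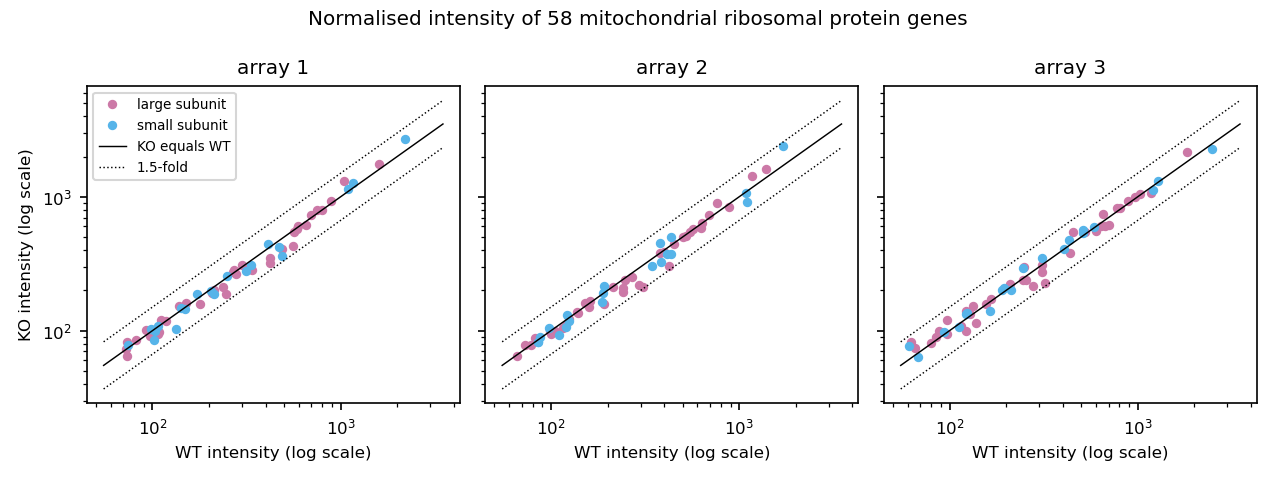
Normalised intensity of the 58 tested genes in KO (vertical axis) against WT (horizontal axis), both on log scales in arbitrary units, 1 panel per array. The solid line marks equal intensity and the dotted lines a 1.5-fold difference. On each array every point lies between the dotted lines.

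The sign of the ratios differed between ranges of probe intensity, among these genes and among all tested genes. Between log2 intensities of 8 and 9 there were 13 of these genes, 2 positive and 11 negative, with a median of -0.11, and the 892 tested genes in that range had a median of -0.052, with 36.8% positive. Between 10 and 11 there were 4 (Mrpl53, Mrpl57, Mrps12 and Mrps23), 3 positive and 1 negative, with a median of 0.094, and the 243 tested genes there had a median of 0.15, with 75.3% positive. Above 11 lay Mrps34 alone, in a range where 91.8% of 147 tested genes were positive and their median was 0.25. The 3 genes of highest mean, Mrps34, Mrpl53 and Mrpl57, thus lay in ranges where most tested genes had a positive mean, and Mrpl4 lay in one where most had a negative mean. Below a log2 intensity of 7, 18 of these genes were split 9 to 9, and the median of 4067 tested genes was 0.0073. The part of intensity in the ratios was not tested.

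**Figure D4:**
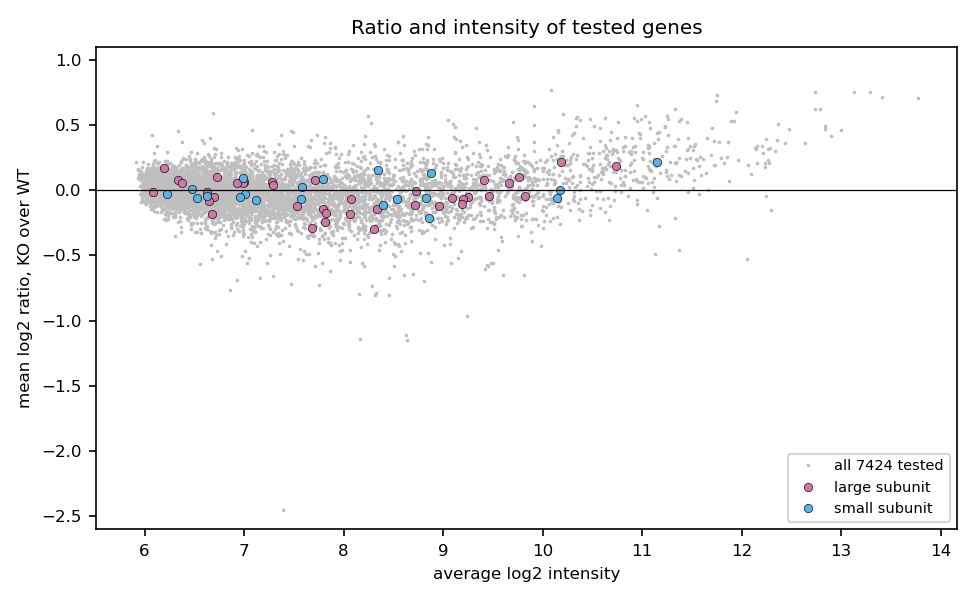
Mean log2 ratio of KO over WT (vertical axis) against average log2 intensity (horizontal axis) of all 7424 tested genes in grey, with large subunit genes in pink and small subunit genes in blue. The coloured points lie within the grey cloud, which turns upward above an intensity of 10, where Mrps34, Mrpl57 and Mrpl53 are found.

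The loess step, which reduces a trend of the ratio with intensity on each array, decided how many genes were called. Among the tested genes a part of the trend remained after it, as the intensity ranges above show. With each array centred on its median and no loess, limma called 30 of the 58 lower in KO and 2 higher at an adjusted p of 0.05, against 22.1% lower and 13.7% higher of all 7424. The 32 were 25 large and 7 small subunit genes. The 58 were also divided by intensity into 20 dim, 19 middle and 19 bright genes. Without loess their medians were 0.039, -0.36 and -0.45, where the tested genes of the same ranges had medians of 0.16, -0.24 and -0.42. Of the bright genes 18 of 19 were then called lower, as were 74.5% of the 1082 tested genes of that range. The sign of Mrpl53, Mrpl57, Mrps17, Mrps18b and Mrps34 turned without loess, to values between -0.41 and -0.14 for the first 4 and -0.43 for Mrps34, while Mrpl4 stood at -0.58.

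**Figure D5:**
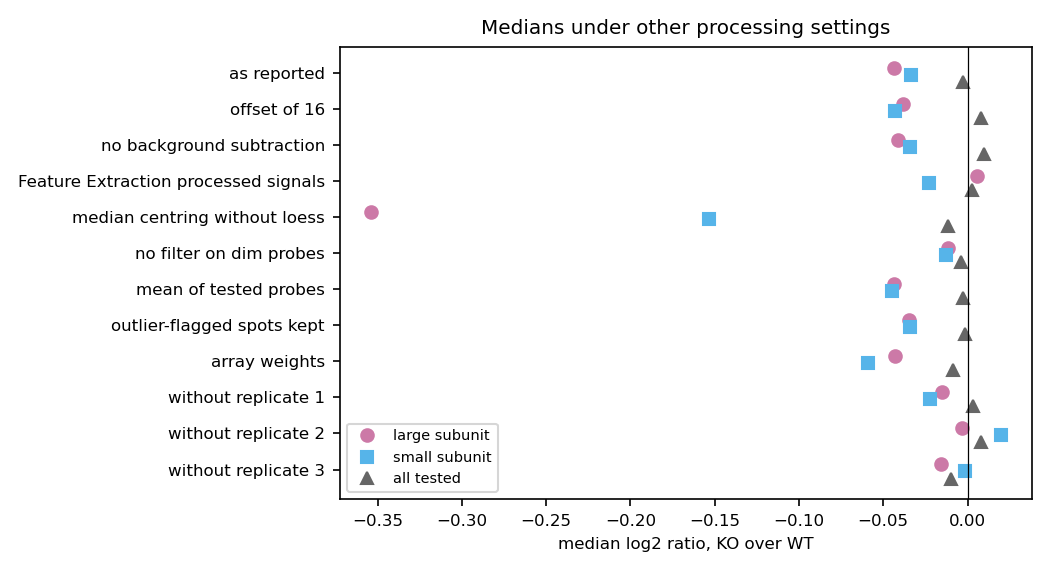
Median log2 ratio of KO over WT (horizontal axis) of the large subunit genes, the small subunit genes and all tested genes under 12 ways of processing (rows). Without loess the large subunit is at -0.35 and the small subunit at -0.15, and in the other rows shown the medians lie between -0.06 and 0.02, the lowest being the small subunit with array weights.

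The remaining 20 genes were not tested. In 16 of them no probe was well above background on all 3 arrays, and 2 of these, Mrpl19 and Mrps35, were at background in both channels of every array. Among the 16 were Mrpl12, the stalk protein also described to bind the mitochondrial RNA polymerase, at log2 ratios of -0.19, -0.23 and -0.03, and Mrps14, whose brightest probe stood at 0.004, 0.08 and -0.56. The other 4 had an outlier flag on array 3 and so have values on 2 arrays. On arrays 1 and 2 Mrpl33 stood at -0.20 and 0.24, Mrpl41 at -0.21 and -0.08, Mrps28 at 0.11 and 0.24, and Mrps6 at -0.34 and -0.40. With the spots on array 3 kept, Mrps6 gave 0.38 there and a mean of -0.12 (SD 0.44, limma adjusted p = 0.794), so its lower values on 2 arrays were not met on array 3. The means of Mrpl33, Mrpl41 and Mrps28 were then 0.17, -0.0023 and 0.14, and none was called.

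The other proteins of the mitochondrial ribosome and its machinery were followed in lists. Of 5 ribosomal proteins under other symbols, 4 were tested, all of the small subunit, and 0 were called in either direction, with a median of 0.16. Chchd1 (mS37) stood at 0.09, 0.45 and 0.61, a mean of 0.38 (SD 0.27, n = 3, limma adjusted p = 0.202), and Aurkaip1 (mS38) at 0.16, 0.42 and 0.12, a mean of 0.23 (SD 0.16, adjusted p = 0.300). Both are bright, at log2 intensities of 11.7 and 12.3, in the range where 91.8% of tested genes were positive, and the processed signals gave 0.090 and -0.19. Dap3 (mS29), the GTP-binding protein of the small subunit, stood at -0.24, -0.17 and -0.17, a mean of -0.19 (SD 0.041, adjusted p = 0.292). All 4 had one sign on all arrays, 3 positive (75%, against 17.5% of all 7424) and 1 negative (25%, against 18.3%). At an unadjusted p under 0.05 in limma, Chchd1 and Aurkaip1 were higher in KO (50%, against 5.9%) and Dap3 lower (25%, against 7.53%).

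Of 17 mitochondrial translation factors on the array 7 were tested and 0 were called, with 5 positive and 2 negative and a median of 0.017. Mtif2, the initiation factor, stood at 0.23, 0.45 and 0.22, a mean of 0.30 (SD 0.13, limma adjusted p = 0.178), or 0.060 with the processed signals. Mtres1 had a mean of 0.19 (SD 0.21) and Metap1d, which removes the first methionine, of -0.10 (SD 0.12). Of 26 factors of ribosome assembly and rRNA modification 10 were tested and 0 were called. Their median was -0.023, and 9 of the 10 had a negative mean, against 3777 of all 7424. Mtg2, a GTPase of large subunit assembly, stood at -0.21, -0.39 and -0.30, a mean of -0.30 (SD 0.092, adjusted p = 0.159). Nsun4, an rRNA methyltransferase that acts in joining the subunits, stood at -0.23, -0.26 and -0.16, a mean of -0.22 (SD 0.049, adjusted p = 0.249), and Ngrn at -0.16 (SD 0.11). Of the negative 9, those 3 and Dhx30 had one sign on all arrays, and the others had means between -0.024 and -0.012.

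Of 21 genes of mitochondrial RNA synthesis and stability 14 were tested and 0 were called, with 7 positive and 7 negative and a median of 0.0054. Tbrg4, a protein that stabilises mitochondrial messages, had a mean of -0.20 (SD 0.083, limma adjusted p = 0.295), Hsd17b10, a subunit of mitochondrial RNase P, of 0.16 (SD 0.041, adjusted p = 0.373), and Fastk of 0.12 (SD 0.14). Hsd17b10 is bright, at a log2 intensity of 11.2, in the range where 91.8% of tested genes were positive, and the processed signals gave -0.047. The messages that these ribosomes translate were not followed, since 0 probes of mitochondrially encoded subunits were found by name. Names were given only through RefSeq transcript accessions, so whether the array holds such probes under other identifiers was not examined.

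The proteins of the cytosolic ribosome and the nuclear-encoded respiratory chain gave other medians on the same arrays. Of 73 tested cytosolic ribosomal protein genes 54 were positive and 0 were called, with a median log2 ratio of 0.093 and array medians of -0.045, 0.066 and 0.257. Of 72 nuclear oxidative phosphorylation subunits 44 were positive and 0 were called, with a median of 0.041. The difference of the mitochondrial ribosomal genes from these groups was not tested. The median log2 intensity was 7.80 for the mitochondrial ribosomal genes, 8.60 for the cytosolic ones, 8.89 for the respiratory chain and 6.86 for all tested genes.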

How the data were processed

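The deposited scanner files hold, per spot and channel, as the authors deposited them, the median intensity, the local background intensity, quality flags and an intensity processed by Agilent Feature Extraction (the file headers name version 12.0.3.1, the submitters' processing notes 11.5). The deposited log10 ratio of red (KO) over green (WT) is held in these files and, to within 5e-10 on arrays 1 and 2 and 0.0050 on array 3, in the authors' value table, whose column medians were 0, 0 and 0. The quality flags (other values, 0 or 1) are as deposited by the authors. The genome build of the probes is not given in the sources used here.

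Background was corrected with normexp (offset 50) and ratios with loess within arrays, with control spots and those with an outlier flag at weight 0, in limma 3.58.1 (R 4.3.3, package data.table, 1.17.8). Outlier-flagged spots were left out. Of 55681 probes, 8391 were tested: those measured on every array and, in KO or in WT, well above background on each. A gene was represented by its brightest tested probe. Accessions were matched to RefSeq GRCm38.p6 (28664 of 29472 probes). The log2 ratio was tested against 0 with lmFit and eBayes, with Benjamini-Hochberg adjustment over 7424 genes and a threshold of 0.05. Normalised intensities are the channel values after loess and include the offset. The number of arrays limits the precision. The steps were tested on simulated data, where they missed some changed genes and called some unchanged ones. The fitted ratios there were typically smaller than the true ones. All arrays lay on 1 slide and each pairs 1 KO with 1 WT sample.

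The members, gene lists and alternatives were chosen with earlier results of these data known. Named were the 8 genes of highest and the 8 of lowest mean, the 4 brightest, the 3 of smallest and the 3 of largest SD, genes whose tested probes differ in sign, Mrps30, Mrps18a and Mrps36, and the 3 genes of smallest p of each list. Other genes were added after their values were seen. Alternatives changed the background correction, offset, normalisation, filter, several probes per gene, outlier flags, moderation, array weights, pairing and arrays used.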

Additional observations from a re-analysis of the deposited data

How the results depend on the processing

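The count of called mitochondrial ribosomal protein genes was 0 under every alternative run except centring without loess, where it was 32. Without loess the large subunit median was -0.35, the small subunit median -0.15 and the large minus small difference -0.12 (SD 0.067). The log2 ratio then turned to -0.38 for Mrpl14, -0.40 for Mrpl27, -0.32 for Mrpl53 and -0.41 for Mrpl57. It also turned to -0.14 for Mrps17, -0.24 for Mrps18b, -0.53 for Mrps23 and -0.43 for Mrps34. In the other direction, it turned to 0.18 for Mrps30 and 0.036 for Mrps36. With the processed signals the large subunit median was 0.0057 and the difference 0.046, and Mrpl53 turned to -0.056 and Mrpl9 to 0.26. Both means turned through array 3, and arrays 1 and 2 kept the reported sign. With no filter on dim probes 75 of the genes were tested and the large subunit median was -0.011. With 1 array left out the count stayed at 0, the large subunit median ran from -0.016 to -0.0036, the small subunit median from -0.022 to 0.020 and the difference from -0.020 to -0.0041, both medians being highest without array 2. The cause of these shifts was not tested, beyond the fact that fewer arrays or another filter also change which genes are tested. With the channels as separate samples, which drops the pairing by array (no replicate block), the count was 0. There 1 gene had an unadjusted p under 0.05 in limma, beside 3.18% of all tested genes. Array weights in limma called 62 of all genes and 0 of these. Over the 24 named genes and 15 alternatives, 321 of 360 values stayed uncalled and within 1 SD of the value reported, and the sign turned in 25 of the 360. These totals include alternatives that left every named log2 ratio as reported, where no sign could turn. Those were the filter on both channels, other moderation, scaling of intensity between arrays and dropping the pairing. Without a filter, or with the mean of tested probes, most named ratios were also unchanged. Dim signal limits the rest: 16 genes were not well above background on all arrays, and the dyes were never exchanged.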
